A study of Mus musculus with 186 samples.

Results

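The genes described here are the 5 receptors through which opioid peptides and endocannabinoids act on neurons: Oprm1 (mu opioid receptor), Oprd1 (delta), Oprk1 (kappa), Oprl1 (nociceptin receptor) and Cnr1 (cannabinoid receptor CB1). They were picked by symbol, and all 5 were found among the 28338 gene symbols of the count table. The study measured RNA in bulk in libraries from brains of mice carrying mutant alleles of Akap11, the gene of an A-kinase anchoring protein. Libraries came from striatum (STR), substantia nigra (SN), thalamus (TH), hippocampus (HP), prefrontal cortex (PFC) and somatosensory cortex (SSC) at 4 weeks (96 libraries) and 12 weeks (90 libraries). The genotypes are WT (63 libraries), Akap11 +/- (63, here HET) and Akap11 -/- (60, here KO), and each of the 36 groups of region, age and genotype holds 5 or 6 libraries. The sources used here do not give strain, sex or how the alleles were made. Nothing in the labels says which libraries came from the same animal, so p-values measure the spread between these samples. In dissected tissue, fewer cells of a type and less RNA per cell cannot be told apart.

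All 5 receptors couple to inhibitory G proteins, which lower cAMP and with it the activity of protein kinase A, open GIRK potassium channels and close presynaptic calcium channels. Opioid receptors are driven by peptides cut from the precursors encoded by Penk, Pdyn and Pomc, and the nociceptin receptor by a peptide from Pnoc. CB1 sits mostly on axon terminals, where lipid messengers made in the postsynaptic cell by diacylglycerol lipase reduce transmitter release. In striatum, projection neurons carry delta, kappa and CB1 receptors, mu receptors mark the patches called striosomes, and kappa receptors are also found on midbrain dopamine neurons.

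On GRCm38, with positions from GENCODE M21, Oprm1 lies at chr10:6758506-7038198 (+), Oprd1 at chr4:132110726-132144486 (-), Oprk1 at chr1:5588466-5606131 (+), Oprl1 at chr2:181715016-181720985 (+) and Cnr1 at chr4:33924593-33948831 (+). Oprd1 has 1 annotated transcript and Cnr1 has 3, whereas Oprm1 has 31, of which 17 are coding. The Oprm1 interval overlaps Ipcef1 on the opposite strand, with 96 shared exon bases, and Gm10945, with 0. The sources used here do not say whether the counting used the strand, so the low values of Oprm1 are uncertain.

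The DNA just upstream of the transcription start is shown for 4 of these genes, because the promoter source used here gives 0 windows for Oprk1. Whether these sequences bear on the levels of the receptors was not tested. RefSeq gives 1 start window for Oprd1 and 3 each for Cnr1, Oprl1 and Oprm1, and the window shown is the only one of each gene that holds no annotated UTR base. Each sequence is the 250 bases before a RefSeq start site on GRCm38.p6, written 5′ to 3′ on the gene's own strand, with each CpG dinucleotide in capitals. Oprd1 is at chr4:132144487-132144736 (-), Cnr1 at chr4:33924014-33924263 (+), Oprl1 at chr2:181714766-181715015 (+) and Oprm1 at chr10:6788320-6788569 (+).
Oprd1: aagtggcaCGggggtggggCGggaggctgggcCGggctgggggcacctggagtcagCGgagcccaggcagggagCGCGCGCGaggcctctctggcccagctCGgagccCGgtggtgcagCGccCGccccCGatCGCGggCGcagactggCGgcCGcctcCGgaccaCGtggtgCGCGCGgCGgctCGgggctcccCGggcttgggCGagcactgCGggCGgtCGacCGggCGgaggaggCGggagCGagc
Cnr1: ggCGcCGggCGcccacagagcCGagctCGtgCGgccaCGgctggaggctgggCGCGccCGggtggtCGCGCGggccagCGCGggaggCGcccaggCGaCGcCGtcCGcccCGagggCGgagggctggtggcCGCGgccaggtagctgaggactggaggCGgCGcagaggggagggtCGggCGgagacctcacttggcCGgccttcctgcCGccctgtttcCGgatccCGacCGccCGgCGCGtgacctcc
Oprl1: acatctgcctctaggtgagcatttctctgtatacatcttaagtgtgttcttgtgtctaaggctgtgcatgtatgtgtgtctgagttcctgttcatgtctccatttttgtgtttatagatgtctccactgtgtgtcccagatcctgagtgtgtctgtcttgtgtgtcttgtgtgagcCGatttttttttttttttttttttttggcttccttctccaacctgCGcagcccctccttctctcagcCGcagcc
Oprm1: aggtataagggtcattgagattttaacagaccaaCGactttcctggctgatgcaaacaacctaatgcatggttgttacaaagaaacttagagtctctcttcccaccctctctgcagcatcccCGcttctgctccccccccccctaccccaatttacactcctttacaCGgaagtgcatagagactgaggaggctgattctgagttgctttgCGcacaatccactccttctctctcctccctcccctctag
The Oprd1 window has a GC content of 80.0% with 34 CpG, and the Cnr1 window 79.2% with 36 CpG. Over 32851 such windows of the same length the medians are 52.4% and 6, and only 3.53% and 2.58% of windows have as many CpG as Oprd1 and Cnr1. The other windows of Cnr1 have 68.8% GC with 28 CpG and 49.2% with 5, so the likeness to Oprd1 holds for the window shown and does not extend to the last. The Oprl1 window has 44.4% GC and 3 CpG, and the Oprm1 window 4 CpG. The cAMP response element TGACGTCA, searched on both strands, is in none of these 4 windows and in 1.55% of all windows. Its half-site TGACG, which the full element contains, is likewise in none of the 4 and in 17.8% of all.

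Library totals ran from 20.8 to 73.3 M expected counts. Levels are given as counts per M (CPM) after TMM scaling, and tests use edgeR's quasi-likelihood method with Benjamini-Hochberg adjustment over all genes tested in a comparison; a gene is called at an adjusted p under 0.05. Akap11 was called lower in KO in each region and age, by log2 changes of -3.65 to -4.30. In HET, 0 genes were called in the 4-week hippocampus and substantia nigra, so Akap11 was not called there. In that hippocampus Akap11 was 104 to 189 CPM in HET and 236 to 328 in WT. The substantia nigra library labelled WT 92 at 4 weeks had 43.6 CPM of Akap11, against 195 to 241 in the other WT libraries of its group, so results that rest on it are given with and without it. By marker scores, defined as the mean log2(CPM + 1) of a cell type's marker genes, 14 libraries stood apart from their region. In the 4-week striatum, KO libraries 51, 161 and 163 and WT library 92 had cortical excitatory neuron scores of 5.21 to 6.27, against 0.69 to 3.00 in the others. The remaining 10 are 4-week thalamus WT 913, 914 and 23, with a low thalamic neuron score, 4-week substantia nigra WT 42, WT 92, KO 44 and KO 91, with a low dopamine neuron score, and somatosensory cortex HET 93 and 162 at 4 weeks and HET 5 at 12 weeks, with a high striatal score. In addition, 16 libraries at 4 weeks had few whole-number values (at most 5.55% of values, against at least 17.3%), and the sources used here give no reason. In these, Cnr1 lay above the range of the other libraries of its group in 7, below it in 1 and inside it in 8. The numbers were 6, 1 and 9 for Oprl1 and 5, 5 and 6 for Oprk1. Oprd1 lay below in 3 and Oprm1 in 5, with 0 above.

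In WT brain the 5 receptors had separate regional profiles, with their extremes mostly in striatum, substantia nigra and thalamus. Each region was compared with the mean of the other 5 at each age. Of the 60 tests of a receptor, 46 were called, 25 of them higher. Calls were common here among all genes (54.0% of all gene tests called, 27.8% called higher), so the count is not a property of the receptors, and the profile of each one carries the description. The plot of WT levels by region shows every library.

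**Figure D1:**
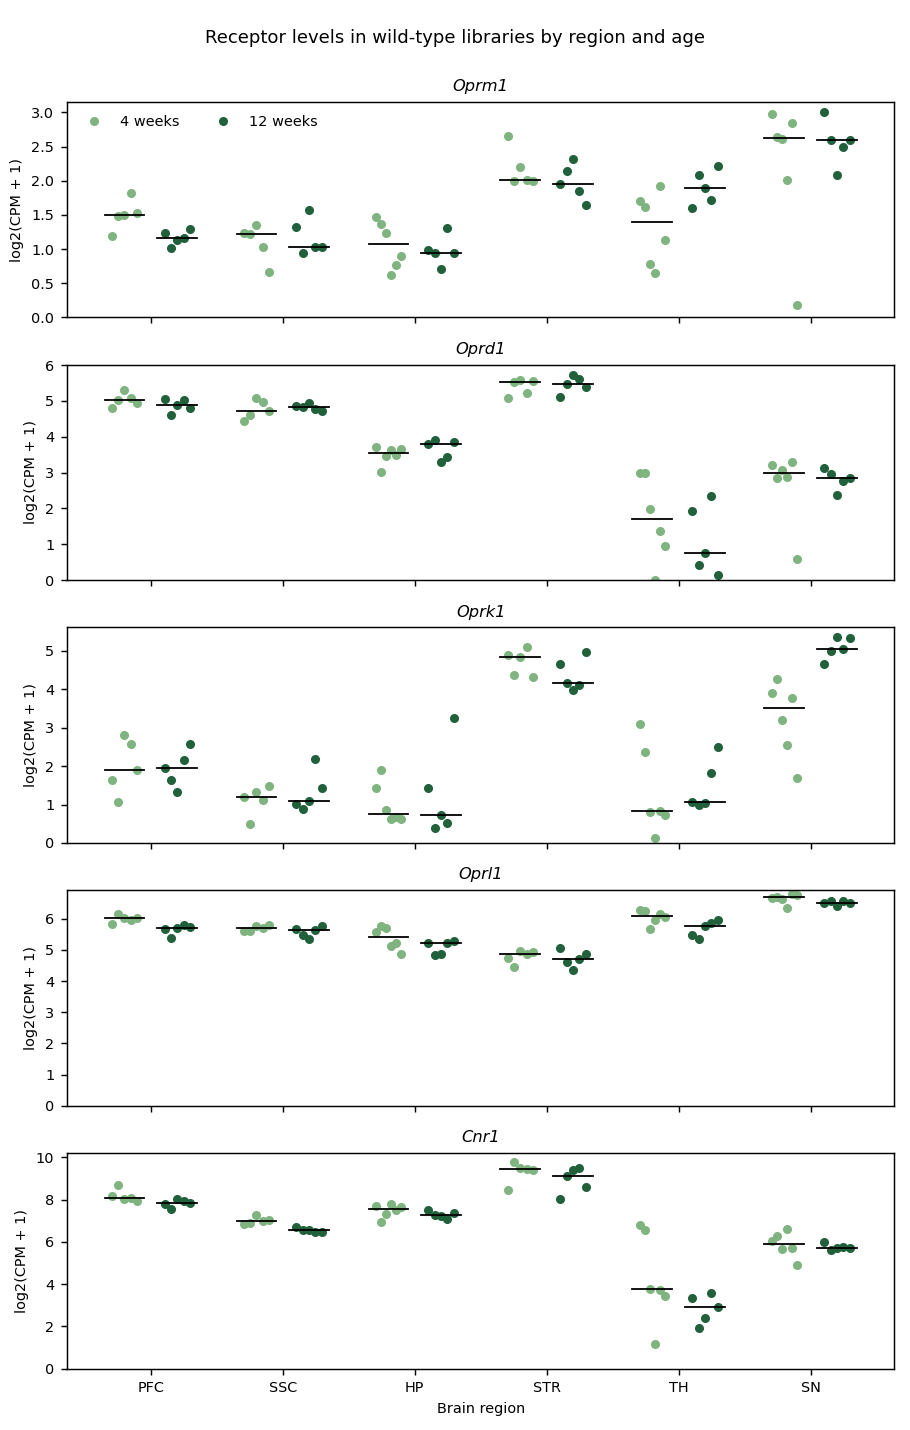
WT levels of the 5 receptors in each region (PFC, SSC, HP, STR, TH and SN), as log2(CPM + 1), with 1 point per library and a line at the group median, for 4 weeks (light) and 12 weeks (dark). By median, Cnr1 and Oprd1 are highest in striatum and lowest in thalamus, Oprl1 is highest in substantia nigra and lowest in striatum, and Oprk1 is high in both striatum and substantia nigra.

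Oprm1, the receptor for morphine and the endorphins, had the lowest median CPM of the 5 over all libraries. Over all libraries it ranged from 0.132 to 7.45 CPM with a median of 1.84. Its expected counts were 4 to 407 per library with a median of 82. At 4 weeks the WT substantia nigra libraries had 6.85, 5.26, 5.13, 3.02, 6.15 and 0.132 CPM, the last being the library labelled WT 92. Striatum had 5.30, 3.00, 3.60, 3.02 and 2.98 CPM, inside the range of the nigra. The other 4 regions lay between 0.534 and 2.78 CPM, below every striatal library. In the 12-week libraries the nigra had 3.25 to 7.07 CPM (median 5.02), striatum 2.14 to 3.98 (median 2.87) and thalamus 2.03 to 3.66 (median 2.71). Neighbours in that order overlapped, and prefrontal cortex, somatosensory cortex and hippocampus lay below them at 0.631 to 1.98 CPM. Against the other regions, the nigra was higher by a log2 difference of 1.36 ± 0.32 (SE; adjusted p = 0.000536) at 4 weeks, or 1.64 (adjusted p = 8.41e-07) without the library labelled WT 92, and 1.60 ± 0.16 at 12 weeks. Striatum was higher by 1.04 ± 0.35 (adjusted p = 0.0132) and 0.70 ± 0.17 (adjusted p = 0.000717), and its 4-week call was lost without WT library 913 (0.84, adjusted p = 0.0723). The share of all genes called in the nigra was 59.0% at 4 weeks and 67.8% at 12 weeks, and in striatum 52.9% and 67.3%.

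Oprd1, the enkephalin receptor, was highest in striatum and cortex and lowest in thalamus. Striatum at 4 weeks had 33.0 to 47.4 CPM (median 44.8), prefrontal cortex 26.9 to 38.9 (median 31.5) and somatosensory cortex 20.9 to 32.8 (median 25.3). These 3 ranges overlap in sequence, and hippocampus, nigra and thalamus all lay below them, at 12.1 CPM or less. At 12 weeks striatum (33.3 to 52.0 CPM) stood clear of both cortices (23.2 to 32.2 CPM). Hippocampus (8.80 to 13.9), nigra (4.22 to 7.72) and thalamus (0.105 to 4.05) followed with no overlap between neighbours. The striatal log2 difference from the other regions was 1.91 ± 0.35 (adjusted p = 2.82e-05) at 4 weeks and 2.14 ± 0.22 (adjusted p = 1.04e-09) at 12 weeks. Thalamus was lower by -2.50 ± 0.45 and -3.52 ± 0.35, against thalamic call shares of 48.1% and 66.9% over all genes, and by -4.53 at 4 weeks without the WT libraries that stood apart. In 21 libraries Oprd1 had fewer than 20 expected counts, and 2 thalamic libraries had 0 (WT 142 at 4 weeks and KO 4 at 12 weeks). A count of 0 there allows up to 0.0902 and 0.0822 CPM, taking 3 counts as the limit, which covers counting error only.

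Oprk1, the dynorphin receptor, had 2 centres, and their order differed between the ages in these libraries. At 4 weeks striatum was highest with 18.8 to 33.5 CPM (median 27.8), above every nigral library (2.25 to 18.3, median 10.4). By 12 weeks the nigra had 24.3 to 39.7 CPM (median 32.3) and striatum 14.7 to 30.3 (median 17.1), with overlapping ranges. Outside these regions the WT medians were 0.651 to 2.84 CPM. Striatum exceeded the other regions by a log2 difference of 3.35 ± 0.41 (adjusted p = 3.81e-08) at 4 weeks and 2.45 ± 0.36 (adjusted p = 7.81e-07) at 12 weeks, and the nigra by 1.67 ± 0.42 (adjusted p = 0.00114) and 3.31 ± 0.34 (adjusted p = 1.13e-09). Without the libraries that stood apart the 4-week nigral difference was 2.54, and without the library labelled WT 92 alone it was 1.90. Hippocampus and somatosensory cortex were called lower at both ages, by -2.08 and -1.35 in hippocampus (36.4% and 54.4% of genes called) and -1.93 and -1.95 in somatosensory cortex (38.4% and 56.4%). In the 12-week hippocampus WT library 5 had 8.58 CPM and the other WT libraries 0.316 to 1.68. Without library 5 the difference was -2.86, and without WT library 1, 2, 3 or 4 it was -1.06 to -1.25 and no longer called (adjusted p from 0.0534 to 0.0715).

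Oprl1, the nociceptin receptor, had the narrowest range as a ratio of highest to lowest, 18.8 to 112 CPM over all libraries with a median of 51.1. The nigra was highest, with 79.9 to 110 CPM at 4 weeks and 83.4 to 94.7 at 12 weeks, above every WT library of the other regions. Striatum was lowest by median, with 20.7 to 30.0 and 19.7 to 32.3 CPM, and overlapped hippocampus at both ages. Thalamus, prefrontal cortex and somatosensory cortex filled the middle, between 39.7 and 76.9 CPM. The log2 difference from the other regions was 1.06 ± 0.09 and 1.20 ± 0.08 in the nigra and -1.18 ± 0.12 and -0.99 ± 0.10 in striatum, all called.

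Cnr1, among the most abundant G protein-coupled receptors of the brain, had the highest median of the 5 over all libraries, 137 CPM, and ran from 1.20 to 1095 CPM. At 4 weeks the WT striatal libraries had 357, 879, 718, 691 and 687 CPM. Prefrontal cortex had 244 to 418 CPM, hippocampus 121 to 224 and somatosensory cortex 113 to 155. The nigra (28.6 to 95.3 CPM) lay below all of these, and thalamus ran from 1.20 to 112, overlapping the nigra. Later, at 12 weeks, the 6 regions separated fully, in the order striatum (262 to 716 CPM), prefrontal cortex (187 to 261), hippocampus (136 to 184), somatosensory cortex (87.9 to 105), nigra (48.7 to 63.3) and thalamus (2.79 to 10.9). Striatum exceeded the other regions by a log2 difference of 2.61 ± 0.37 (adjusted p = 6.71e-07) and 3.00 ± 0.15 (adjusted p = 5.21e-17), and thalamus fell below them by -2.26 ± 0.49 and -4.53 ± 0.25. Without the WT libraries that stood apart the 4-week thalamic difference was -4.62.

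To compare the receptors with each other, WT median CPM was divided by the median length of each gene's coding transcripts in kb. Per kb, Cnr1 was the most abundant of the 5 in striatum, at 119 CPM per kb at 4 weeks and 96.7 at 12 weeks, followed by Oprl1 at 13.5 and 12.1. Oprd1 had 11.1 and 10.7 CPM per kb there, Oprk1 11.2 and 6.88, and Oprm1 2.01 and 1.92. In the nigra Oprl1 led with 48.8 and 43.1 CPM per kb, and Oprm1 had 3.46 and 3.35. In thalamus Cnr1 had 2.15 and 1.11 CPM per kb. Oprm1 there had 1.08 and 1.81, against 0.309 and 0.444 for Oprk1 and 0.570 and 0.170 for Oprd1. Oprm1 was thus not the scarcest of the 5 in every region. These levels move with the transcript chosen, since with the shortest coding transcript Oprk1 in 4-week striatum would be 20.2 CPM per kb and with the longest 5.94.

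Across the 12 WT groups of region and age, the pattern of Oprd1 was close to that of Cnr1 (Pearson r = 0.900 on log2(mean CPM + 1), n = 12), and Oprm1 was closest to Oprk1 (r = 0.857). Oprl1 ran against both Oprd1 (r = -0.547) and Cnr1 (r = -0.576). The groups share regions, so these values describe the profiles and carry no test. Among 14084 genes with a mean of at least 1 CPM, those most like Oprm1 were Jph2 (r = 0.918), Slc25a25 (0.915) and Trappc4 (0.914). Those most like Oprd1 were Cacng3 (0.988), Efnb2 (0.984) and Drc1 (0.983), and those most like Oprk1 were C230014O12Rik (0.978), Pgrmc2 (0.953) and Pbx3 (0.951). Oprl1 was most like Ano10 (0.981), Limk1 (0.970) and Dgkq (0.965), and Cnr1 most like Rundc3b (0.990), Atp8a1 (0.979) and Reln (0.970).

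In WT brain, Cnr1 in somatosensory cortex and Oprl1 in prefrontal cortex were lower at 12 than at 4 weeks. Oprk1 in the nigra was higher. The 2 ages come from different samples, so age and anything else that differed between the 2 sets of libraries cannot be told apart. Of 30 tests, 3 were called and 7 had an unadjusted p under 0.05, where 13.6% of all gene tests were called and 29.3% had such a p, so the receptors' counts lie near the background. Cnr1 in somatosensory cortex went from 113 to 155 CPM (median 126) at 4 weeks to 87.9 to 105 CPM (median 92.9) at 12 weeks, with no overlap. The log2 change was -0.46 ± 0.08 (adjusted p = 0.00191), where 22.8% of genes were called. Oprl1 in prefrontal cortex had 55.9 to 69.4 CPM at 4 weeks and 40.8 to 54.9 at 12 weeks, again with no overlap (log2 change -0.32 ± 0.08, adjusted p = 0.0207, 13.8% of genes called). That call was lost without WT library 23 of 4 weeks (-0.31, adjusted p = 0.0507). For Oprk1 in the nigra, the ranges of 2.25 to 18.3 and 24.3 to 39.7 CPM do not overlap (log2 change 1.76 ± 0.41, adjusted p = 0.0351, 4.24% of genes called). The share of all genes without overlap between the ages was not counted, so these 3 separations are description only. In 4 further cases the unadjusted p was under 0.05 without a call: Cnr1 in prefrontal cortex (log2 change -0.36, adjusted p = 0.1005) and thalamus (-2.58, adjusted p = 0.0947), Oprm1 in prefrontal cortex (-0.56, adjusted p = 0.0732) and Oprl1 in thalamus (-0.36, adjusted p = 0.104). Of these, Cnr1 in thalamus was called without WT library 142 of 4 weeks (-2.84, adjusted p = 0.0407), Oprm1 without WT 913 (-0.67, adjusted p = 0.0288) and Oprl1 without WT 23 (-0.43, adjusted p = 0.0462), while without the thalamic libraries that stood apart Cnr1 changed by -0.21. With other single libraries left out, the edgeR adjusted p of these values reached 0.191, 0.165 and 0.221, in that order.

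In the regions of these 3 called results, some cell type markers also differed between the ages, a whole list only in the nigra. In the nigra the dopamine neuron score was 7.85 to 8.29 at 12 weeks and 2.77 to 7.71 at 4 weeks, and all 7 markers had a 12-week median above every 4-week library. Without WT 42 and the library labelled WT 92, the 2 with the lowest scores, the Oprk1 change was 1.35 (adjusted p = 0.0019). When single libraries were left out it was 1.55 to 2.02, with adjusted p from 0.0054 to 0.0990, and the call was lost in 8 of 11 refits. In somatosensory cortex the interneuron score was 6.33 to 6.48 at 12 weeks against 6.13 to 6.36 at 4 weeks, with 2 of 7 markers above every 4-week library by median. There the cortical excitatory score was 6.95 to 7.24 at 12 weeks against 7.14 to 7.55 at 4 weeks. By median, 4 of its 8 markers were below every 4-week library and 1 was above every one. In prefrontal cortex 3 of 8 were below every 4-week library and 0 above, with scores of 7.15 to 7.26 against 7.22 to 7.84. None of these markers was at 0 throughout the 12-week WT libraries of its region, and their part in the Cnr1, Oprl1 and Oprk1 changes was not tested.

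Loss of Akap11 left the 5 receptors without a called change in any region at either age. With edgeR, 0 of 60 KO tests and 0 of 60 HET tests were called, against 0.644% and 0.00521% of all gene tests. At an unadjusted p under 0.05 there were 10 in KO and 4 in HET, where 8.73% and 5.39% of all gene tests fell under that limit. DESeq2 called 3 KO values, Cnr1 (log2 change -3.46, adjusted p = 0.00798) and Oprd1 (-3.64, adjusted p = 0.00454) in the 4-week thalamus and Cnr1 in the 12-week striatum (-0.68, adjusted p = 0.0398), and 0 HET values. For no receptor did the KO or the HET libraries stand wholly apart from WT, as 3.58% of genes did at 4 weeks and 5.39% at 12 weeks in KO striatum. Both comparisons use the same WT libraries. In HET, Akap11 itself was not called in the 4-week hippocampus and nigra. A HET value without a call therefore does not show an unchanged level. The precision differed by gene: the SE of a KO log2 change ran from 0.057 to 0.17 for Oprl1, and up to 0.92 for Cnr1, 0.98 for Oprk1 and 1.07 for Oprd1. The plot of genotype changes shows all of these values.

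By member, the 12 KO changes of Oprl1 stayed closest to WT, between -0.20 and 0.16 on the log2 scale with 7 of 12 above 0. Those of Oprm1 ran from -0.35 to 0.57 with 8 of 12 above 0, among them the hippocampus (0.57 ± 0.38 at 4 weeks, 0.43 ± 0.34 at 12 weeks), and those of Oprk1 from -0.93 to 0.80 with 4 of 12 above 0. Cnr1 ran from -3.45 to 0.17 and Oprd1 from -3.59 to 0.31, with 3 of 12 above 0 for each and medians of -0.08 and -0.09. The far ends of the last 2 ranges are the 4-week thalamus. In HET the medians over the 12 comparisons were 0.00 for Cnr1, Oprd1 and Oprl1, -0.04 for Oprm1 and -0.11 for Oprk1. In the substantia nigra, the second centre of Oprk1, the 12-week KO libraries had 24.6 to 32.7 CPM, inside the WT range of 24.3 to 39.7, and the log2 change was -0.24 ± 0.14 (95% interval -0.50 to 0.03).

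**Figure D2:**
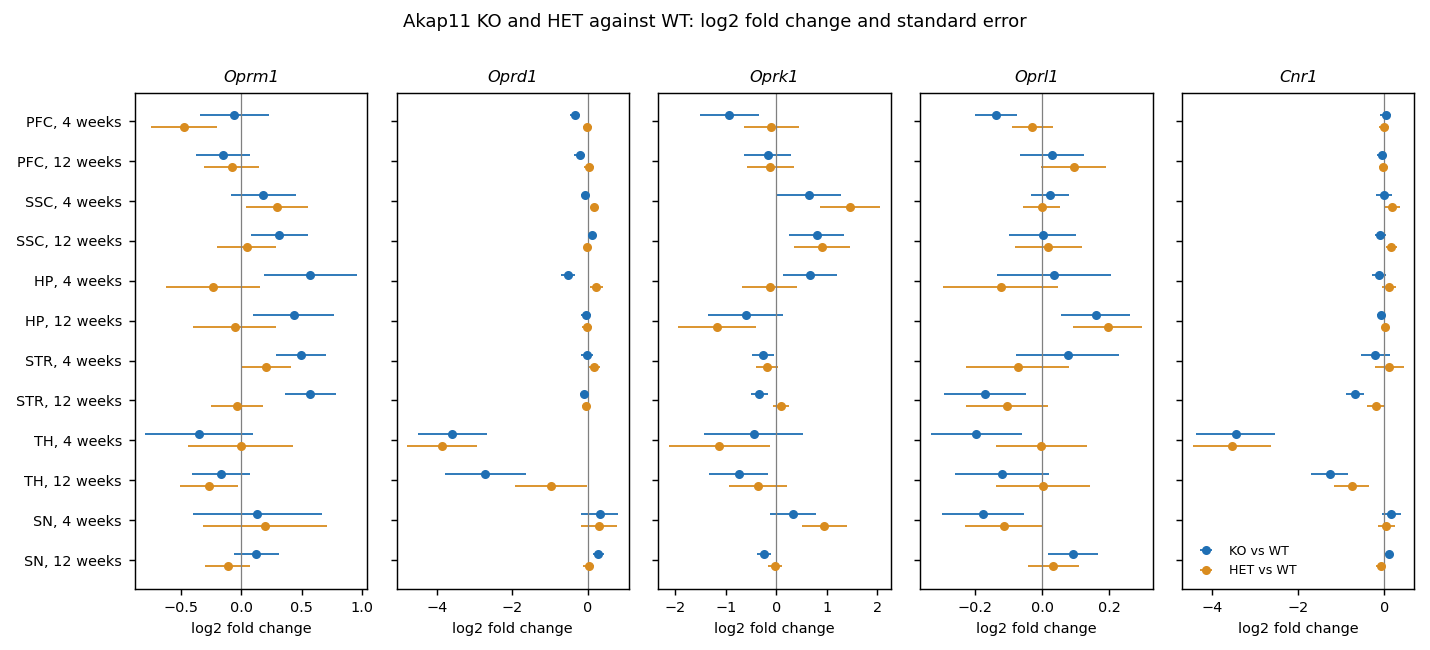
Log2 fold changes of the 5 receptors in KO and HET against WT, by region and age, as points with bars of 1 standard error from edgeR. No value is called at an adjusted p under 0.05, and Cnr1 and Oprd1 in the 4-week thalamus lie farthest from 0.

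The striatum, where KO calls concentrated (3.35% of genes called at 4 weeks and 4.42% at 12 weeks, 17.9% and 15.9% with an unadjusted p under 0.05), is the region where Oprm1 had an unadjusted p under 0.05 at both ages in KO, without a call. At 4 weeks the KO libraries had 4.18, 4.01, 6.38, 6.08 and 4.74 CPM and the WT libraries 5.30, 3.00, 3.60, 3.02 and 2.98. At 12 weeks KO had 3.54, 6.64, 4.18, 3.81 and 4.22 CPM and WT 3.42, 3.98, 2.87, 2.61 and 2.14. At both ages 4 of 5 WT libraries lay below every KO library, and the remaining WT library (913 at 4 weeks, 2 at 12 weeks) lay inside the KO range. The log2 change was 0.50 ± 0.21 (n = 5 and 5; edgeR unadjusted p = 0.0288, adjusted p = 0.213) at 4 weeks and 0.57 ± 0.21 (unadjusted p = 0.0154, adjusted p = 0.163) at 12 weeks. In HET the changes were 0.20 and -0.03, from 2.78 to 5.11 CPM (median 4.31) and 2.40 to 4.09 (median 2.54). The striosome score, whose 6 markers include Pdyn, was 5.62 to 6.07 in KO and 5.59 to 5.71 in WT at 4 weeks, and 5.60 to 6.03 and 5.48 to 5.88 at 12 weeks. At each age 2 of its 6 markers had a KO median above every WT library. Going the other way, 2 of 6 at 4 weeks and 3 of 6 at 12 weeks had a KO median below the WT median. Below every WT library there were 1 at 4 weeks and 0 at 12 weeks. The part of this score in the Oprm1 values was not tested.

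The KO change of striatal Cnr1 was negative at both ages, without a call by edgeR, and at 4 weeks it was 0.51 without the 4 libraries with high cortical scores. At 12 weeks the KO libraries were tightly placed at 338, 298, 389, 329 and 282 CPM, while WT had 559, 689, 262, 716 and 394. A single WT library, number 3, lay below all KO libraries. The log2 change was -0.68 ± 0.21 (95% interval -1.10 to -0.27; edgeR unadjusted p = 0.00528, adjusted p = 0.0887), and without WT library 3 it was -0.85 (adjusted p = 0.00517). Over all refits with a single library left out, the change ran from -0.85 to -0.55, with edgeR adjusted p up to 0.214. At 4 weeks KO had 1095, 806, 307, 253 and 436 CPM against WT 357, 879, 718, 691 and 687, and the change was -0.21 ± 0.34 (adjusted p = 0.811). HET libraries lay at 554 to 917 CPM at 4 weeks and 325 to 560 at 12 weeks, with changes of 0.12 and -0.19. The remaining receptors were not called in KO striatum either. Oprk1 changed by -0.26 ± 0.21 and -0.33 ± 0.17 (edgeR unadjusted p = 0.0637 at 12 weeks), Oprd1 by -0.04 and -0.11, and Oprl1 by 0.08 and -0.17. The median absolute change over all genes was 0.12 at 4 weeks and 0.10 at 12 weeks.

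**Figure D3:**
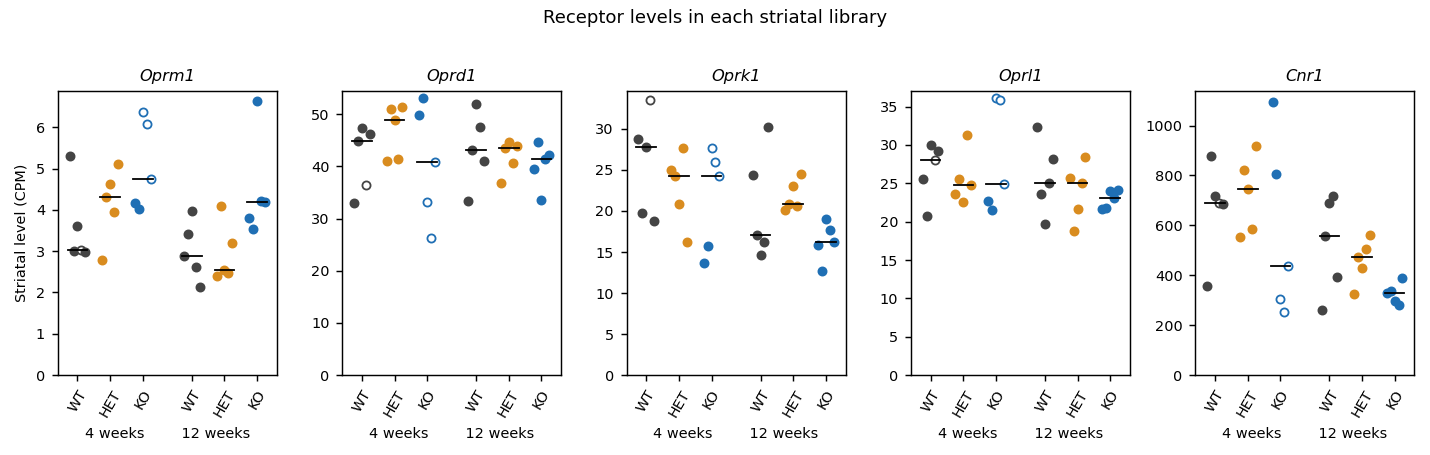
Receptor levels in every striatal library, in CPM, by genotype and age, with open circles for the 4 libraries at 4 weeks that have high cortical excitatory neuron scores. Lines mark group medians. The 3 open KO circles have 253, 307 and 436 CPM of Cnr1, and the 2 filled KO circles of that age 806 and 1095. The library at 1095 CPM had few whole-number values.

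In the 4-week striatum, the 3 KO libraries with a high cortical marker score had lower Cnr1 and higher Oprm1 than the other 2 KO libraries. WT 92, which also had a high score, lay at the WT median of both genes (691 and 3.02 CPM). KO 51, 161 and 163 had scores of 5.81, 6.27 and 5.26, the other KO libraries and 4 of 5 WT libraries 3.00 or less, and 4 of 8 cortical markers had a KO median above every WT library, with none at 0 throughout KO. The pan striatal score was 8.86 to 10.4 in KO and 9.71 to 10.5 in WT, with 7 of 8 markers below every WT library by median. Without these 3 KO libraries and WT 92, which leaves 2 KO and 4 WT libraries, the Oprm1 change was 0.12 (adjusted p = 0.861), Cnr1 turned to 0.51 (adjusted p = 0.374), Oprd1 to 0.25 (adjusted p = 0.335) and Oprl1 to -0.27 (adjusted p = 0.358), and Oprk1 was -0.71 (adjusted p = 0.114). Of the libraries left, KO 12 (1095 CPM of Cnr1) and WT 914 (879 CPM) had few whole-number values. At 12 weeks the cortical score was 0.579 to 1.06 in KO and 0.601 to 0.898 in WT. The pan striatal score was then 9.46 to 9.74 in KO and 9.58 to 10.04 in WT, with 8 of 8 markers lower by median and 2 of 8 below every WT library. The part of these marker shifts in the receptor values was not tested.

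In thalamus, where both genes are scarce, the KO and HET values of Cnr1 and Oprd1 lay far below most WT libraries at 4 weeks. Cnr1 in WT was 112, 93.5, 12.5, 12.4, 9.92 and 1.20 CPM, against 1.62 to 5.80 in KO and 1.38 to 6.43 in HET. Oprd1 in WT was 6.90, 6.89, 2.98, 1.61, 0.955 and 0 CPM, against 0.0981 to 0.436 in KO and 0.0374 to 0.435 in HET. WT library 142 held the lowest value of both genes, below all KO libraries. Cnr1 changed by -3.45 ± 0.92 in KO (edgeR unadjusted p = 0.00173, adjusted p = 0.191) and -3.54 ± 0.92 in HET (adjusted p = 0.209). Oprd1 changed by -3.59 ± 0.92 in KO (unadjusted p = 0.0013, adjusted p = 0.170) and -3.86 ± 0.92 in HET (unadjusted p = 0.000707, adjusted p = 0.194). The 12-week KO changes were -1.27 ± 0.42 for Cnr1 (unadjusted p = 0.00796, adjusted p = 0.505) and -2.72 ± 1.07 for Oprd1 (unadjusted p = 0.0221, adjusted p = 0.592), and the HET changes -0.76 and -0.98.

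These thalamic values turn on which WT libraries are used. Without WT library 142 all 4 passed the threshold at 4 weeks: Cnr1 at -3.70 (adjusted p = 0.0352) in KO and -3.79 (adjusted p = 0.0381) in HET, and Oprd1 at -3.84 (adjusted p = 0.0131) and -4.12 (adjusted p = 0.0115). Without WT 913, 914 and 23, which had low thalamic neuron scores, Cnr1 was -1.07 in KO (adjusted p = 0.763) and -1.15 in HET, and Oprd1 -1.64 (adjusted p = 0.730) and -1.92 (adjusted p = 0.894). The interneuron score was 2.61 to 5.45 in WT, 2.61 being library 142, and 2.45 to 3.02 in KO. Of its 7 markers, Gad1, Gad2, Sst and Pvalb had a WT median above every KO library, and 1 had a WT median below the KO median. The thalamic neuron score was 7.67 to 8.90 in WT and 8.48 to 8.81 in KO, with 4 of 7 markers below every KO library by WT median. At 12 weeks the interneuron score was 2.81 to 5.53 in WT and 2.67 to 4.16 in KO. By WT median, 1 of 7 markers was above every KO library and 1 was below every one, with 2 below the KO median. No marker of these lists was at 0 throughout WT, and the part of these shifts in the Cnr1 and Oprd1 values was not tested.

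Within regions, some receptor levels followed these scores from library to library. The 6 relations below were chosen after the data were seen and use log2(CPM + 1) over all genotypes. In the 12-week nigra, Oprk1 followed the dopamine neuron score (Pearson r = 0.830, Spearman rho = 0.850, n = 15; permutation test, adjusted p = 0.00028 and 0.00088), and r was 0.821 without the 2 libraries farthest from the median score. At 4 weeks, without the 4 nigral libraries that stood apart, r was 0.886 and rho 0.874 (n = 13; permutation test, adjusted p = 0.00028 and 0.00088), and 0.873 without the 2 farthest. Oprm1 in the same nigral libraries gave r = -0.439 at 12 weeks (rho = -0.479) and -0.422 at 4 weeks (rho = -0.203), neither past the threshold (permutation test, adjusted p = 0.114 and 0.161 for r). In the 12-week thalamus Oprd1 followed the interneuron score (r = 0.903, rho = 0.821, n = 15; permutation test, adjusted p = 0.00012 and 0.00088), with r = 0.808 without the 2 farthest. Cnr1 there had r = 0.641 and rho = 0.432 (permutation test, adjusted p = 0.0195 and 0.128), and r dropped to 0.316 without the 2 farthest libraries, so the relation rests on them. The 4-week thalamic libraries fell into separate clusters, so no value is given for them.

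**Figure D4:**
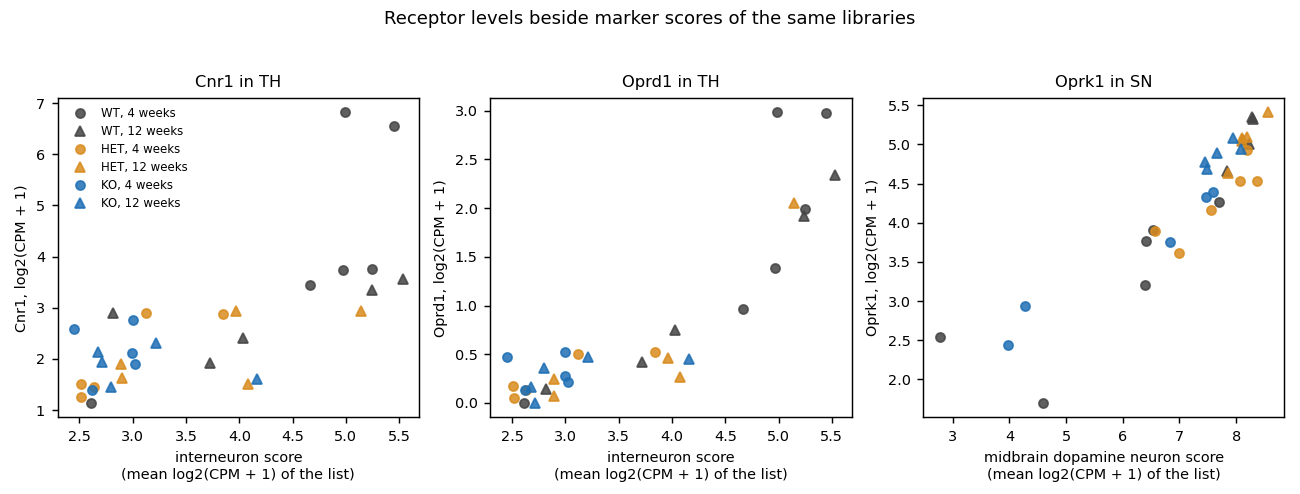
Receptor level, as log2(CPM + 1), against a marker score for every thalamic library (Cnr1 and Oprd1 against the interneuron score) and every nigral library (Oprk1 against the dopamine neuron score). At 12 weeks Oprk1 rises with the dopamine score (r = 0.830) and Oprd1 with the interneuron score (r = 0.903).

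Outside striatum and thalamus, 5 genotype values had an unadjusted p under 0.05, and none was called. In the 4-week prefrontal cortex Oprd1 changed by -0.34 ± 0.12 in KO (edgeR unadjusted p = 0.0132, adjusted p = 0.249) and Oprl1 by -0.14 ± 0.06 (unadjusted p = 0.044, adjusted p = 0.318), where 15.1% of all genes had an unadjusted p under 0.05. In the 4-week hippocampus Oprd1 was 4.51 to 9.75 CPM in KO and 7.10 to 12.1 in WT (-0.53 ± 0.18, unadjusted p = 0.0088, adjusted p = 0.725). In the 4-week somatosensory cortex Oprk1 changed by 1.46 ± 0.60 in HET (unadjusted p = 0.0249, adjusted p = 0.789), with 10.6 CPM in HET 93 and 3.61 in HET 162. Those libraries had pan striatal scores of 7.17 and 6.30, against 4.51 to 4.58 in the other HET libraries, and without them the change was 0.34. In the 4-week nigra Oprk1 changed by 0.95 ± 0.44 in HET (unadjusted p = 0.0441, adjusted p = 0.548) and by 0.56 without WT 42 and the library labelled WT 92.

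The KO effect on the receptors was not shown to differ with age or region. In the test of the KO effect at 12 minus 4 weeks, edgeR called 0 of 30 receptor values and 0% of all genes, DESeq2 called 0 receptor values, and 1 receptor value had an unadjusted p under 0.05, against 5.21% of all gene tests. That value was Cnr1 in thalamus (difference 2.18 ± 1.01, unadjusted p = 0.0403, adjusted p = 0.777), and it was -0.21 without the libraries that stood apart. In striatum the difference between ages was 0.07 ± 0.30 for Oprm1 and -0.48 ± 0.42 for Cnr1. In the test of the striatal KO effect minus the mean of the other 5 regions, edgeR called 0 of 10 receptor values, against 3.31% of all gene tests, and limma-voom called 0. The only unadjusted p under 0.05, found for 13.4% of all gene tests, was for Oprd1 at 4 weeks (difference 0.81 ± 0.40, unadjusted p = 0.0479, adjusted p = 0.348). For Oprm1 this difference was 0.41 ± 0.44 at 4 weeks and 0.45 ± 0.27 at 12 weeks, and for Cnr1 0.47 ± 0.46 and -0.41 ± 0.23.

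Some genes on the ligand and effector side were called in KO striatum, and whether their share differs from that of the receptors was not tested. In 7 lists with 37 genes, 8 of 69 striatal KO tests were called and 23 had an unadjusted p under 0.05, where 3.89% of all striatal gene tests were called and 16.9% had such a p. In the other 5 regions edgeR called 0 of 343 KO tests, with 42 at an unadjusted p under 0.05, as had 7.16% of all gene tests there. In HET it called 0 of 69 striatal tests (0 at an unadjusted p under 0.05) and 0 of 343 others (38). The lists were chosen with earlier results of these data known, so these counts cannot show an excess over all genes. Among the 8 calls, Pdyn and Dagla each appear at both ages. Each called gene is given here.

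Of the 4 peptide precursor genes, Pdyn, which encodes prodynorphin, the source of the peptides that drive the kappa receptor, rose at both ages. At 4 weeks Pdyn was 67.9 to 108 CPM in WT (median 83.6) and 123 to 181 in KO (median 129). At 12 weeks it was 46.3 to 112 CPM in WT (median 90.5) and 144 to 232 in KO (median 177). The ranges did not overlap at either age, as was so for 3.58% and 5.39% of all genes tested. The log2 change of Pdyn was 0.73 ± 0.16 (adjusted p = 0.0177) and 1.03 ± 0.23 (adjusted p = 0.0157). Penk, Pomc and Pnoc were not called, and the list median was 0.29 and 0.26 against -0.00 and 0.01 for all genes. Without the 4 striatal libraries with high cortical scores the 4-week change of Pdyn was 0.87 (adjusted p = 0.0302). The call at 4 weeks was lost without WT library 42 (0.66, adjusted p = 0.0509) and without the libraries with few whole-number values (0.59, adjusted p = 0.0612).

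Of the 5 genes of peptide processing, Pcsk1 and Pcsk2, the prohormone convertases that cut the precursors, moved in opposite directions. Pcsk1 rose at 4 weeks, from 8.50 to 14.4 CPM in WT to 20.6 to 24.9 in KO (log2 change 1.03 ± 0.20, adjusted p = 0.0090). At 12 weeks its ranges of 5.79 to 14.6 and 14.96 to 20.04 CPM did not overlap either, but the change of 0.75 ± 0.22 was not called (adjusted p = 0.0698). Pcsk2 fell at 12 weeks, from 478 to 595 CPM in WT to 394 to 463 in KO (-0.36 ± 0.06, adjusted p = 0.0023), and had a change of -0.16 (adjusted p = 0.531) at 4 weeks. The list medians were -0.04 and 0.04.

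Of the 6 genes of endocannabinoid synthesis, Dagla, the diacylglycerol lipase that makes the main CB1 ligand at synapses, fell at both ages. Dagla was 163 to 252 CPM in WT (median 226) and 139 to 184 in KO (median 151) at 4 weeks, with overlap. At 12 weeks it was 128 to 184 CPM in WT (median 177) and 89.9 to 118 in KO (median 106), with no overlap. The log2 change of Dagla was -0.49 ± 0.10 (adjusted p = 0.0145) and -0.63 ± 0.10 (adjusted p = 0.0011). The 4-week call was lost without the 4 libraries with high cortical scores (-0.31, adjusted p = 0.251) and with only the 2 compared genotypes in the fit (adjusted p = 0.0748). The list medians were 0.00 and -0.16. None of the 6 genes of endocannabinoid breakdown was called at either age in striatum (2 and 1 with an unadjusted p under 0.05), and of the 4 other cannabinoid-binding receptors only 1 and 2 were expressed enough to be tested, with 0 called.

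Downstream of the receptors, 2 genes were called at 12 weeks. Arrb1, the beta-arrestin that ends G protein signalling, was 356 to 420 CPM in WT and 426 to 517 in KO (log2 change 0.27 ± 0.07, adjusted p = 0.0310), with no overlap, and it was the only call among 8 genes of desensitisation and CB1 partners. Kcnj9, a GIRK channel subunit, was 41.9 to 50.8 CPM in WT and 48.1 to 62.7 in KO (0.29 ± 0.08, adjusted p = 0.0438), with overlap, and was the only call among 4 GIRK genes. At 4 weeks Arrb1 changed by 0.17 (adjusted p = 0.383) and Kcnj9 by 0.74 ± 0.23 (adjusted p = 0.101), and the GIRK list median was 1.39 at 4 weeks against -0.01 at 12. Kcnj9 at 4 weeks was 75.5 to 113 CPM in the 4 libraries with high cortical scores and 36.9 to 57.2 in the other 6 KO and WT libraries. Without those 4 it changed by 0.40 ± 0.09 (adjusted p = 0.0279) and the GIRK list median was 0.33. Neither 12-week call held in every refit: leaving out single libraries ended that of Arrb1 in 7 of 10 refits (adjusted p up to 0.0867) and that of Kcnj9 in 8 of 10 (up to 0.126). The calls of Pcsk1 at 4 weeks and of Pdyn, Dagla and Pcsk2 at 12 weeks held in every such refit.

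**Figure D5:**
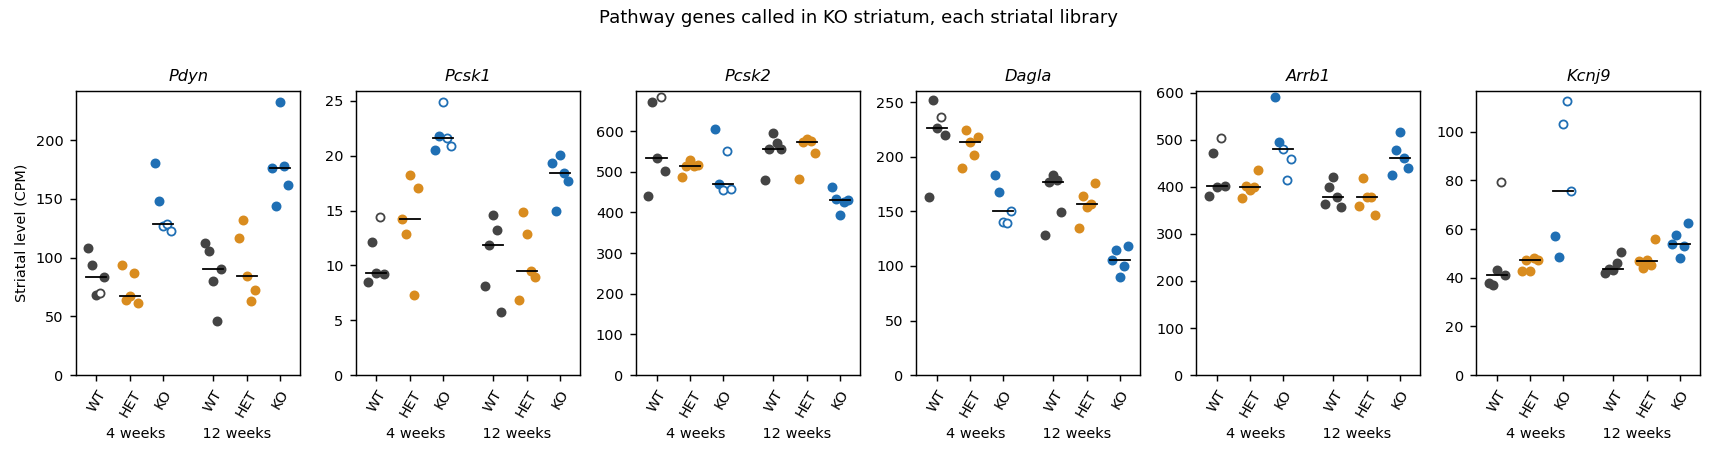
Levels of Pdyn, Pcsk1, Pcsk2, Dagla, Arrb1 and Kcnj9 in every striatal library, in CPM, by genotype and age. KO libraries lie above all WT libraries for Pdyn and Pcsk1 at both ages and below all of them for Dagla and Pcsk2 at 12 weeks.

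Among striatal libraries of one age, receptor levels varied together in part. The 20 pairwise relations (10 per age, on log2(CPM + 1), 4-week libraries with high cortical scores left out) were chosen after the data were seen. Oprd1 and Cnr1 rose together at 12 weeks (Pearson r = 0.788, Spearman rho = 0.757, n = 15; permutation test, adjusted p = 0.0079 and 0.034), with r = 0.714 without the 2 farthest libraries and 0.819 after centring each genotype. At 4 weeks r was 0.893 and rho 0.755 (n = 11; permutation test, adjusted p = 0.0079 and 0.0651), with r = 0.614 without the 2 farthest. Oprk1 ran against Cnr1 at 4 weeks (r = -0.762, rho = -0.764; permutation test, adjusted p = 0.0245 and 0.0651; r = -0.641 without the 2 farthest), while at 12 weeks r was -0.124 (rho = -0.068; permutation test, adjusted p = 0.825 and 0.957) and -0.601 after centring. No relation of Oprm1 with another receptor had an adjusted p under 0.05 at either age (permutation test). The 4-week libraries used include KO 12 and WT 914, which had few whole-number values. Libraries share dissection and depth, and the part of either in these relations was not tested.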

How the data were processed

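RNA libraries of 36 groups were sequenced, and the deposited values are expected counts, estimated per gene by the authors; per the submitters' processing notes, which name tools without a role, Salmon and mm10 were used. The sources used here do not give the Salmon version, the annotation or the use of strand. Of the values above 0, 77.9% were not whole, and 0 columns were left without a sample. Libraries were grouped by their labels.

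Expected counts were rounded. The 3 genotypes of a region and age entered 1 fit in edgeR 4.0.16 (R 4.3.3; TMM, filterByExpr, glmQLFit, glmQLFTest, no covariate). WT libraries alone were fitted for age and region, and 1 fit per region or age for the differences of KO effects. The standard error (SE) is the log2 change divided by the square root of F, and 95% intervals come from it. CPM are scaled over all libraries. Scripts were tested on simulated data. Correlations were tested with 100000 permutations (scipy 1.17.1).

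Alternatives were RLE scaling, no filter, DESeq2 1.42.0, the 2 compared genotypes only, all genotypes in the age fit, limma-voom (limma 3.58.1), a replicate block, and each library left out in turn. After the data were seen, fits without the 14 libraries that stood apart (cortical score above 4 in striatum, thalamic score under 8, dopamine score under 5, striatal score above 5.5 in somatosensory cortex) and without the 16 with few whole values were added. Named genes are the 5 receptors, Akap11, every called member of the 7 pathway lists, and the 3 genes most like each receptor. The receptors and lists were chosen with earlier results of these data known. Across 390 pairs of libraries of one group, chi-square divided by its degrees of freedom was at least 8.36, so no pair looked like 1 library deposited more than once. Positions are 1-based, from GENCODE M21 and RefSeq on GRCm38. The promoter table matched 4 of the 5 symbols. No entry was used for Oprk1.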

Additional observations from a re-analysis of the deposited data

Results flagged for a closer look

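Of 180 group values tested (5 receptors in 36 groups), 15 had a highest or lowest library set far from the rest of its group by Dixon's 95% criterion. Chance flags about 1 in 20 groups. Of the libraries named below, nigral WT 92 and prefrontal WT 914 of 4 weeks had few whole-number values. No cause was tested.

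Oprm1 had 4 such libraries: WT 913 in the 4-week striatum (5.30 CPM, others 2.98 to 3.60), HET 4 in the 12-week prefrontal cortex (0.813, others 1.21 to 1.34), KO 2 in the 12-week striatum (6.64, others 3.54 to 4.22) and HET 4 in the 12-week thalamus (4.13, others 1.63 to 2.07). Oprd1 had 2: the library labelled WT 92 in the 4-week substantia nigra (0.495 CPM, others 6.15 to 8.79) and HET 1 in the 12-week thalamus (3.16, others 0.0538 to 0.377). Oprk1 had 4: KO 163 in the 4-week thalamus (5.68 CPM, others 0.294 to 1.60), HET 93 in the 4-week somatosensory cortex (10.6, others 0.688 to 3.61), HET 3 in the 12-week hippocampus (2.27, others 0.568 to 0.881) and WT 5 in the 12-week hippocampus (8.58, others 0.316 to 1.68). Oprl1 had 1, WT 42 in the 4-week substantia nigra (79.9 CPM, others 98.7 to 110). Cnr1 had 4: WT 914 (418 CPM, others 244 to 288) and KO 44 (261, others 301 to 316) in the 4-week prefrontal cortex, WT 1 in the 12-week substantia nigra (63.3, others 48.7 to 52.9) and HET 5 in the 12-week somatosensory cortex (159, others 82.4 to 95.8). HET 5 also had 6.93 CPM of Oprk1 and a pan striatal score of 6.24.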

How the results depend on the processing

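The count of called receptors in KO was 0 with edgeR, 3 with DESeq2 and 0 to 2 as single libraries were left out, and in HET it was 0, with 0 to 2 as single libraries were left out. The 3 age calls became 5 with DESeq2, 5 with all genotypes in the fit and 2 to 4 as single libraries were left out. The 46 region calls were 44 to 47 as single libraries were left out, 49 without the libraries that stood apart and 42 without those with few whole values. Both tests of a difference in KO effect stayed at 0 called in every refit run. Without the libraries that stood apart, an alternative chosen after seeing the data, 4 of the values named above changed sign: in the 4-week striatum the KO change was 0.51 for Cnr1, 0.25 for Oprd1 and -0.27 for Oprl1, and the difference between ages for Cnr1 in thalamus was -0.21. As single libraries were left out, the 4-week striatal KO change ran from -0.15 to 0.083 for Oprd1 and from -0.033 to 0.16 for Oprl1. The cause was not tested. No called region or age value changed sign in any refit. Uncalled values of any size, counted over every receptor test, changed sign in 50 of 1048 values under other settings and in 224 of 2691 with a single library left out. RLE scaling moved 0 of 180 group means by more than 1 SD and scaling by total count 7. Depth limits Oprm1 most widely (4 to 407 expected counts per library), and Oprd1 mainly in thalamus, which holds 20 of the 21 libraries with fewer than 20 counts; Oprk1 had fewer than 20 in 11 libraries.

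With a replicate block in the 12-week fits, 1 KO value was called, Oprm1 in striatum (0.55, adjusted p = 0.0465), 0 HET values were, and 47 region values were. The block left 0 called in the test of the striatal KO effect (limma-voom). The labels do not say that a number marks an animal, so the numbers were not taken as a pairing. Of 60 same-numbered pairs of a KO or HET library with WT at 12 weeks, 39 had deviations correlated above 0.1 (-0.278 to 0.764, median 0.168). Set against the 5 WT libraries of their region, 25 of 60 KO and HET libraries correlated best with their own number. A random choice among 5 would give the own number in about 1 of 5 libraries. Whether same-numbered libraries share a source was not tested.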
